A study of Homo sapiens with 10 samples.

Results

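The genes described here are 47 genes of DNA replication and S phase, chosen by name from the licensing, firing, synthesis and supply steps of chromosome replication, and all 47 had a probe on the array among 30484 genes with a probe. They were measured in PC-3 cells, an established cell line of human prostate cancer, by hybridizing total RNA to 10 single-color Agilent arrays of the human transcriptome, 2 for each group. Untreated cells were taken at 0 h, and the other groups were kept for 24 h with the solvent DMSO, with 60 µM luteolin (a plant flavonoid), with 60 µM gefitinib (an inhibitor of the EGF receptor kinase) or with 60 µM of each. All groups are the same line in the same serum-containing medium, and the labels call the 2 arrays of a group biological replicates. The scanner files of the 6 drug-treated arrays carry another treatment in their names than the labels do. The arrays labelled luteolin are named for gefitinib, those labelled gefitinib are named for the combination, and those labelled as the combination are named for luteolin. Groups below follow the labels, and every direction given for a drug rests on them.

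A chromosome can be copied once per cycle because origins are prepared and fired in separate steps. In G1 phase the origin recognition complex, CDC6 and CDT1 place the MCM helicase on DNA, which geminin prevents later in the cycle. At the start of S phase the CDC7 kinase with its partner DBF4, together with cyclin-dependent kinase, lets CDC45 and the GINS complex join the helicase so that the polymerases can begin. Most of these genes are transcribed under E2F factors late in G1 phase, and their mRNA levels are low in cells that have left the cycle.

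On the 10 arrays 63.4% to 70.4% of the probes were well above background and no spot was saturated. All 7 markers listed for PC-3 carcinoma cells (KRT8, KRT18, KRT19, EPCAM, CDH1, CLDN4 and VIM) were detected everywhere. VIM, which is not specific to epithelium, had signals of 63400 to 116000, beside 17300 to 130000 for KRT19. Of the 3 KLK3 probes, 1 was well above background on all 10 arrays. The fibroblast list had 0 of 6 and the leukocyte list 3 of 5 markers detected on every array. Summed signals relative to the array's 75th percentile were 0.179 to 0.435 for the fibroblast list and 0.678 to 1.44 for the leukocyte list. The carcinoma list, with VIM, had 175 to 266. The sum of the carcinoma list was 259 to 266 with the gefitinib label, 175 to 176 with the combination label and 207 to 232 on the other arrays. Its part in the results below was not tested. The defining leukocyte marker PTPRC and the fibroblast markers DCN and PDGFRB did not stand well above background anywhere. Probe positions below use hg18, the build in the file headers, and promoter positions use GRCh38.p14. Levels are log2 signals relative to the array's 75th percentile and are compared between arrays for the same probe only. In RNA from whole cultures, fewer cells in S phase and less of an mRNA in each cell cannot be told apart.

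All 47 genes were lower on both arrays labelled luteolin than on both DMSO arrays, where 32.4% of all genes lay wholly below DMSO. Of these, 43 were called lowered (adjusted p under 0.05 in limma with a change of 1 or more on the log2 scale), while 6.13% of the 20953 genes tested were lowered. None of the 47 was raised, against 7.04% of all genes. The median change of the 47 was -1.88, beside 0.08 over all genes tested. With the gefitinib label 10 were lowered and 5 raised, beside 14.1% and 16.6% of all genes. With the combination label 6 were lowered and 0 raised, beside 7.45% and 12.1% of all genes. For the latter, 24 of the 47 had an unadjusted p under 0.05 in either direction, and without a minimum fold limma called 16 lowered and 2 raised. The shares of all genes under these looser rules are not given, so these counts are not comparable with the shares above.

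**Figure D1:**
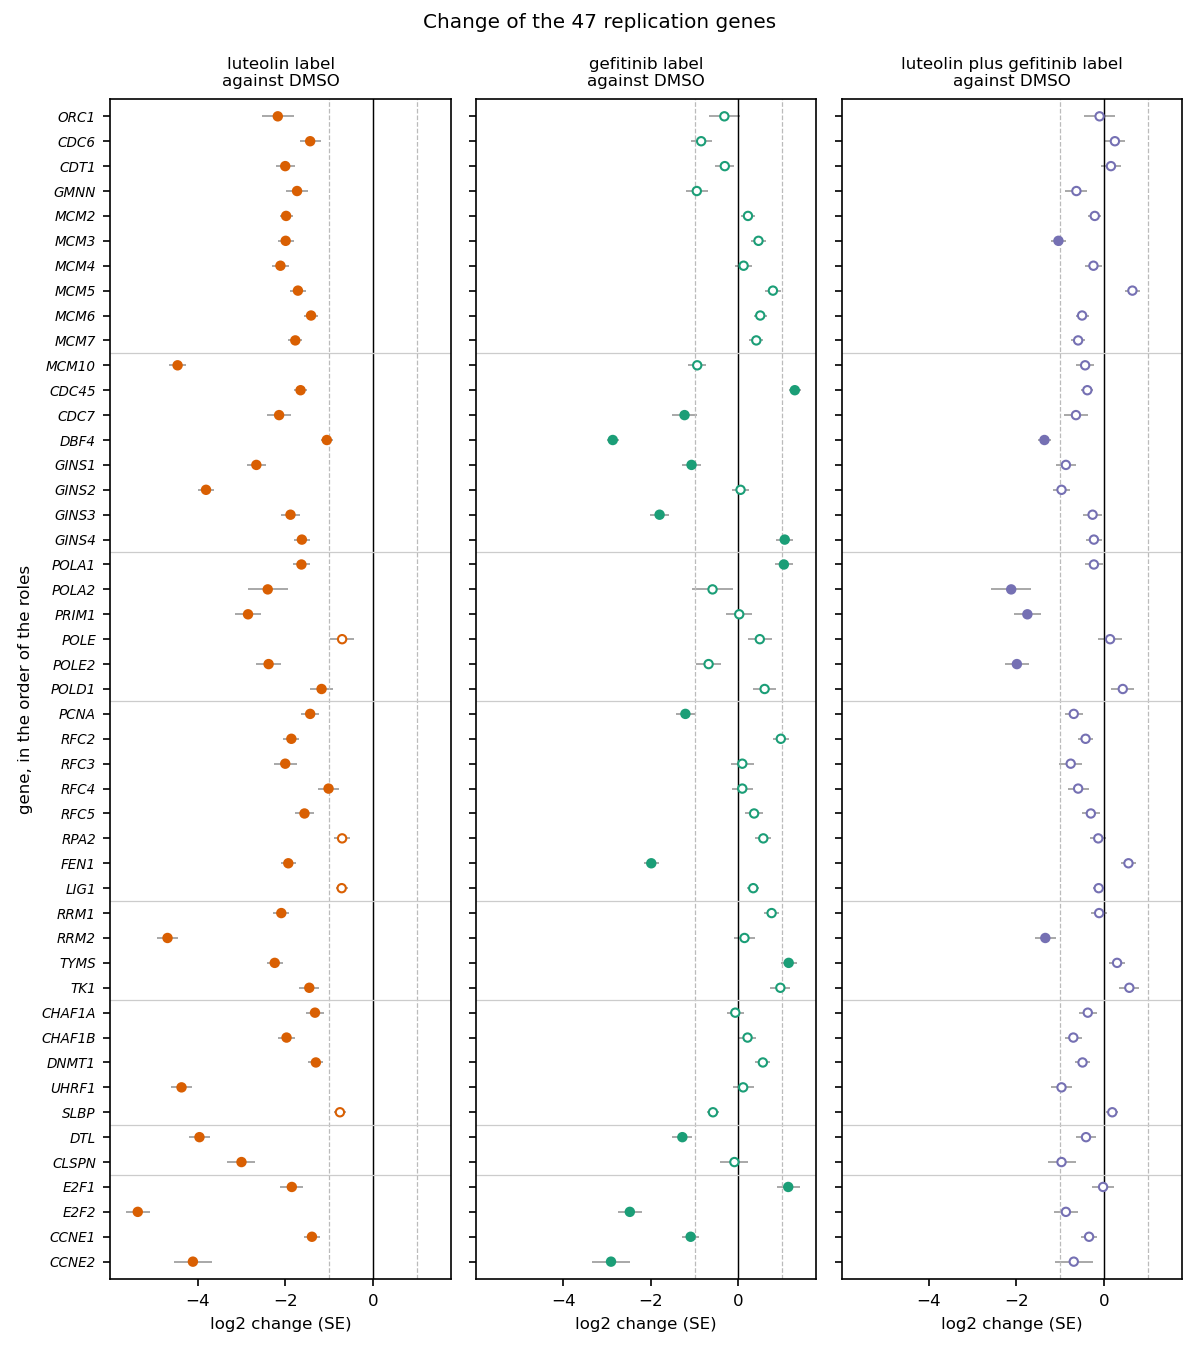
Log2 change of each of the 47 genes (rows, ordered by role) against DMSO under each of the 3 drug labels. Points are the limma estimates with their standard errors, filled points were called, dashed lines mark a log2 change of 1 in size, and the luteolin panel has 43 filled points to the left of 0.

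DBF4 was the 1 gene lowered under all 3 drug labels, although its call with the combination label was lost, at -0.94, when the median over its probes was taken. POLE, RPA2, LIG1 and SLBP were called under none. The 3 drug labels share the DMSO arrays, so their changes are given side by side and are not independent of one another. The spread between the 2 arrays of a group differed. Over the 47 genes the median SD was 0.047 for DMSO, 0.084 at 0 h, 0.16 with the luteolin label, 0.103 with the gefitinib label and 0.312 with the combination label.

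**Figure D2:**
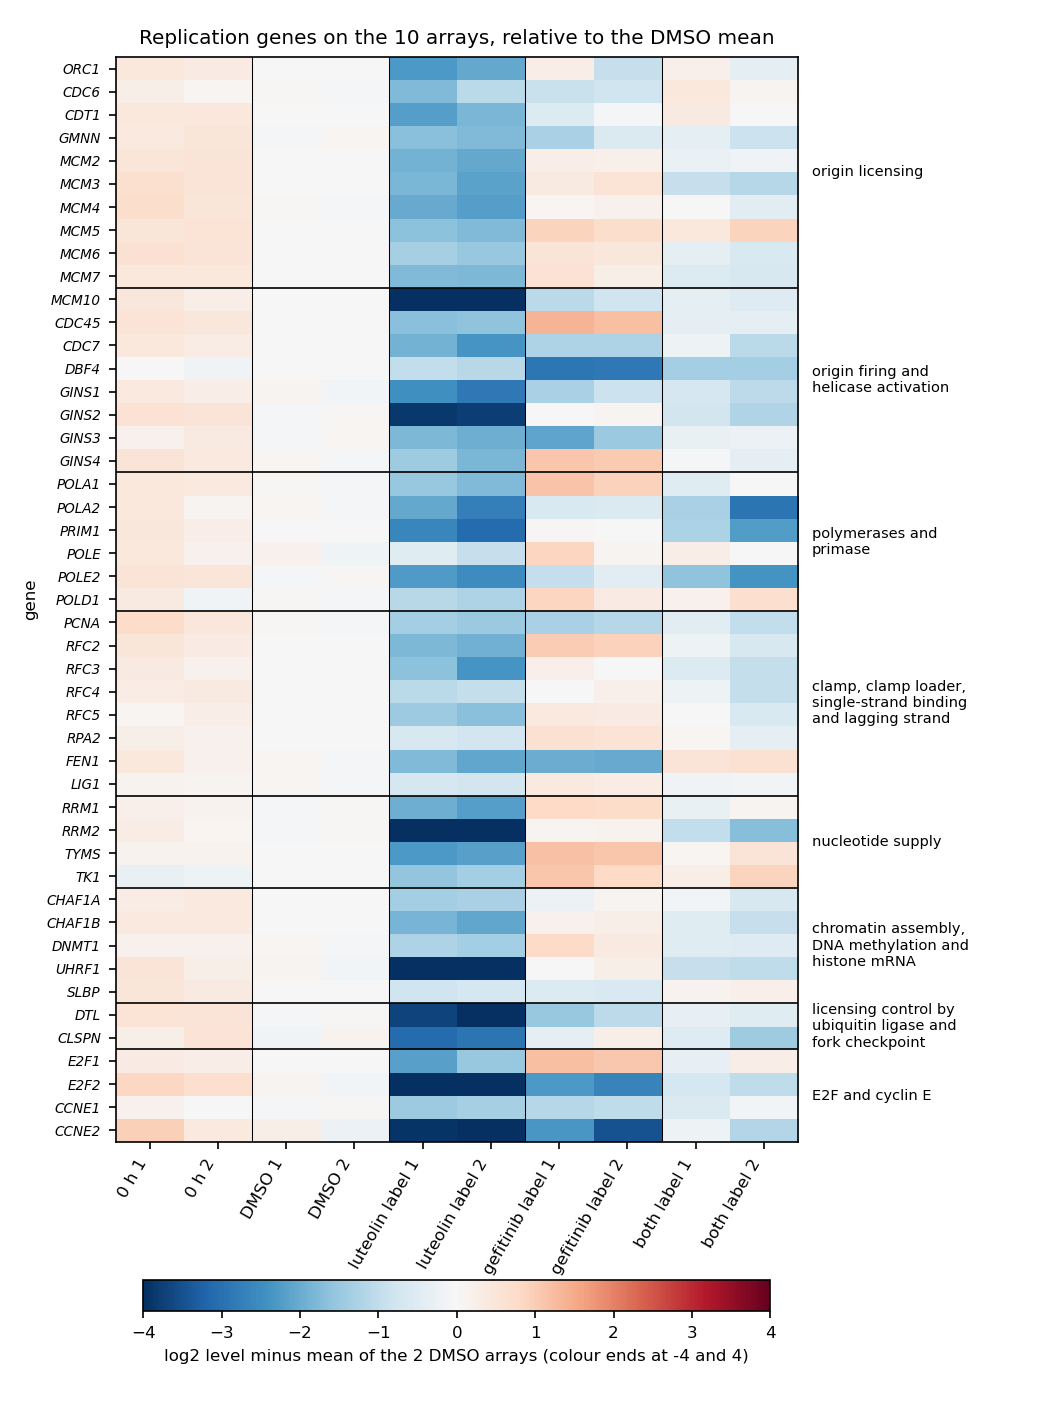
Level of each of the 47 genes on each of the 10 arrays as a log2 difference from the mean of the 2 DMSO arrays, with rows grouped by role and columns by label. Blue is lower and red is higher than DMSO, the color scale ends at -4 and 4, and the columns labelled luteolin are blue in every row.

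All 10 licensing genes were lowered with the luteolin label (median -1.88, range -2.17 to -1.41), 0 were called with the gefitinib label (median 0.17) and 1 with the combination label (median -0.22). ORC1, the largest subunit of the origin recognition complex, stood at -2.21 and -2.17 with DMSO, -4.48 and -4.23 with luteolin, -1.91 and -3.11 with gefitinib and -2.00 and -2.58 with the combination, after -1.78 and -1.87 at 0 h. It fell by 2.17 with the luteolin label (SE 0.36, adjusted p = 0.00422 in limma), the largest change of the group, while its arrays labelled gefitinib lay on either side of the DMSO arrays. CDT1, which loads the helicase, was at 2.76 and 2.77 at 0 h, 2.35 and 2.34 with DMSO, 0.15 and 0.53 with luteolin, 1.81 and 2.26 with gefitinib and 2.69 and 2.32 with the combination. Its change with luteolin was -2.00 (SE 0.22, adjusted p = 0.00097), and its differences of -0.31 and 0.16 with gefitinib and the combination were not called.

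GMNN encodes geminin, the inhibitor of CDT1. It was at 2.78 and 2.89 at 0 h, 2.33 and 2.48 with DMSO, 0.72 and 0.64 with luteolin, 1.10 and 1.82 with gefitinib and 2.01 and 1.55 with the combination, so every drug-treated array lay below every DMSO array. The change was -1.73 (SE 0.25, adjusted p = 0.00257) with luteolin, and it missed the threshold of size with gefitinib at -0.95 (adjusted p = 0.0143). The inhibitor and its target both fell with the luteolin label.

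The 6 subunits MCM2 to MCM7 fell within a narrow range with the luteolin label, from -1.41 for MCM6 to -2.11 for MCM4. MCM2 was at 2.04 and 2.08 at 0 h, 1.53 and 1.57 with DMSO, -0.35 and -0.51 with luteolin, 1.80 and 1.74 with gefitinib and 1.28 and 1.41 with the combination. MCM3 was at 4.54 and 4.40 at 0 h, 3.90 and 3.88 with DMSO, 2.06 and 1.74 with luteolin, 4.25 and 4.45 with gefitinib and 2.97 and 2.74 with the combination. MCM3 was the 1 licensing gene lowered with the combination label (-1.04, SE 0.18, adjusted p = 0.0041), and that call was lost without the combination array of replicate 2. MCM5 differed by 0.79 with gefitinib and by 0.65 with the combination, both positive and neither called. Its sign under the combination label differed from that of the other subunits, of which MCM3 alone was called.

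All 8 firing genes were lowered with the luteolin label (median -2.01), and with the gefitinib label 4 were lowered and 2 raised. MCM10, which helps to activate the loaded helicase, was at -0.48 and -0.68 at 0 h, -0.93 and -0.94 with DMSO, -5.17 and -5.61 with luteolin, -2.01 and -1.74 with gefitinib and -1.28 and -1.44 with the combination. Its change of -4.46 with luteolin (SE 0.20, adjusted p = 7.81e-05) placed it at rank 6 from the bottom of all 20953 genes. Only 1 of the 2 arrays labelled luteolin had this probe well above background, so part of this fall lies below the limit of detection, and normexp background correction gave -2.70.

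DBF4 (NM_006716, probe at chr7:87375257-87375316), the activating partner of the CDC7 kinase, had another pattern. It was at -0.19 and -0.29 at 0 h, -0.14 and -0.18 with DMSO, -1.15 and -1.27 with luteolin, -3.04 and -3.02 with gefitinib and -1.52 and -1.52 with the combination. The change was -2.87 (SE 0.14, adjusted p = 3.42e-05) with gefitinib, against -1.05 with luteolin and -1.36 with the combination, and DBF4 was the 1 gene of the 47 called lower with the gefitinib label than with the luteolin label (-1.82, adjusted p = 7.22e-05). CDC7 itself fell by 2.14 with luteolin and by 1.23 with gefitinib, and its -0.64 with the combination was not called. The luteolin call of DBF4 was lost without the luteolin array of replicate 2 and, at -0.95, under normexp background correction.

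CDC45 and the GINS complex travel with the helicase, and with the gefitinib label their genes did not share a direction. Of all genes, 14.1% were lowered and 16.6% raised with that label. The rises of CDC45 and GINS4 depended on the processing, as given below. CDC45 was at 3.24 and 3.16 at 0 h, 2.71 and 2.70 with DMSO, 1.02 and 1.08 with luteolin, 4.06 and 3.92 with gefitinib and 2.36 and 2.30 with the combination. Its change was -1.65 (SE 0.14, adjusted p = 0.00053) with luteolin and 1.29 (SE 0.14, adjusted p = 0.000416) with gefitinib. GINS4 was at -1.31 and -1.44 at 0 h, -1.74 and -1.90 with DMSO, -3.24 and -3.65 with luteolin, -0.72 and -0.78 with gefitinib and -1.90 and -2.19 with the combination, and rose by 1.06 (SE 0.19, adjusted p = 0.00296) with gefitinib. The arrays labelled gefitinib were the highest of the 10 for both genes. In the same comparison GINS1 fell by 1.07 and GINS3 by 1.80 while GINS2 differed by 0.05, so the 4 subunits of GINS included 1 raised and 2 lowered genes. With the luteolin label all 4 fell, GINS2 most (-3.81, adjusted p = 8.45e-05).

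Of the 6 polymerase and primase genes 5 were lowered with the luteolin label, 3 with the combination label and 0 with the gefitinib label, where POLA1 rose. The 3 lowered with the combination label had the largest falls of the 47 genes there. POLA2, the regulatory subunit of polymerase alpha, was at 0.77 and 0.47 at 0 h, 0.44 and 0.26 with DMSO, -1.71 and -2.39 with luteolin, -0.25 and -0.23 with gefitinib and -0.96 and -2.57 with the combination. PRIM1, the catalytic primase subunit, was at 1.49 and 1.30 at 0 h, 1.05 and 1.02 with DMSO, -1.58 and -2.05 with luteolin, 1.07 and 1.05 with gefitinib and -0.22 and -1.20 with the combination. Both genes lay below DMSO on all 4 arrays labelled luteolin or the combination, with a wide gap between the 2 combination arrays.

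With the combination label the changes were -2.12 for POLA2 (SE 0.46, adjusted p = 0.00921), -1.75 for PRIM1 (SE 0.30, adjusted p = 0.00427) and -1.99 for POLE2, an accessory subunit of polymerase epsilon (SE 0.28, adjusted p = 0.00201). The POLA2 call was lost without the DMSO array of replicate 1. With the luteolin label PRIM1 fell by 2.85, POLA2 by 2.40 and POLE2 by 2.38, and the POLA2 call was lost without the luteolin array of replicate 2 (adjusted p = 0.0627). POLA1, the catalytic subunit of polymerase alpha, was at 1.57 and 1.54 at 0 h, 1.20 and 1.12 with DMSO, -0.35 and -0.60 with luteolin, 2.31 and 2.09 with gefitinib and 0.69 and 1.16 with the combination. It fell by 1.63 (adjusted p = 0.00128) with luteolin and rose by 1.04 (SE 0.20, adjusted p = 0.00363) with gefitinib, whereas its partner POLA2 stood at -0.59 (adjusted p = 0.3) there. POLE, the catalytic subunit of the leading-strand polymerase, had a dim probe, well above background on 9 arrays, and no call.

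Of the 8 genes of the sliding clamp, its loader, single-strand binding and lagging-strand processing, 6 were lowered with the luteolin label and 2 with the gefitinib label. PCNA, the clamp itself, was at 3.97 and 3.69 at 0 h, 3.28 and 3.18 with DMSO, 1.87 and 1.73 with luteolin, 1.94 and 2.09 with gefitinib and 2.81 and 2.25 with the combination. It fell by 1.43 (SE 0.21, adjusted p = 0.00273) with luteolin and by 1.21 (SE 0.21, adjusted p = 0.00272) with gefitinib, and the -0.69 with the combination was not called. RFC3, a subunit of the clamp loader, was at 0.74 and 0.54 at 0 h, 0.41 and 0.35 with DMSO, -1.25 and -1.99 with luteolin, 0.57 and 0.38 with gefitinib and -0.17 and -0.58 with the combination. Its change with luteolin was -2.00 (SE 0.26, adjusted p = 0.00155).

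FEN1 (NM_004111, probe at chr11:61320605-61320663), the nuclease that trims the flaps between Okazaki fragments, fell under either single label and not under the combination label. It was at 2.03 and 1.77 at 0 h, 1.68 and 1.54 with DMSO, -0.17 and -0.47 with luteolin, -0.36 and -0.41 with gefitinib and 2.11 and 2.22 with the combination. The changes were -1.93 (SE 0.17, adjusted p = 0.000537), -1.99 (SE 0.17, adjusted p = 0.000154) and 0.56 (SE 0.17, adjusted p = 0.0333, under the size threshold). The 4 arrays with a single drug label did not overlap any other array. LIG1 and RPA2, which join the fragments and cover single-stranded DNA, differed by -0.71 and -0.70 with luteolin and were not called.

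**Figure D3:**
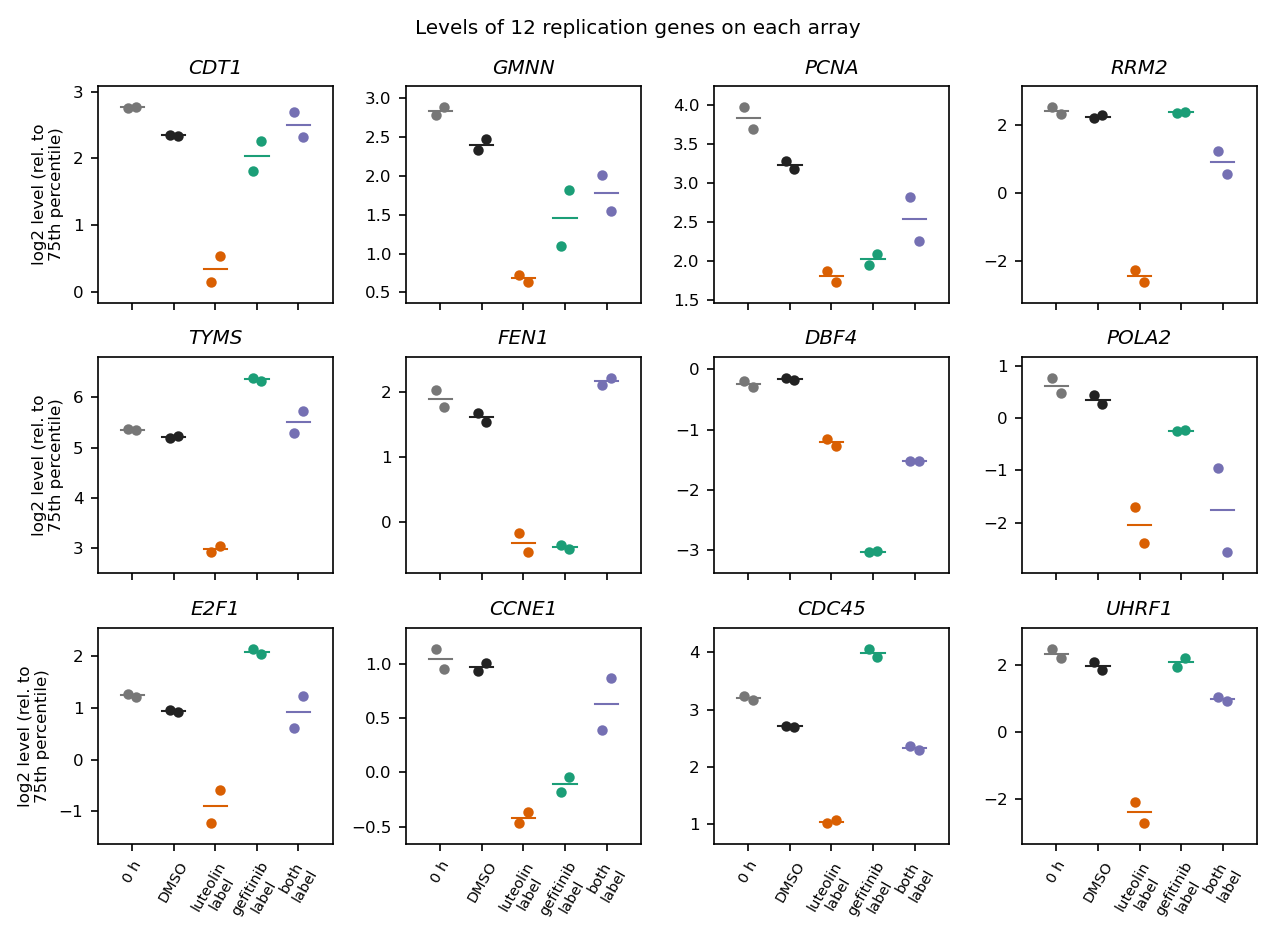
Log2 level relative to the array's 75th percentile of 12 genes on each array, in the order 0 h, DMSO and the luteolin, gefitinib and combination labels. Points are arrays and bars are the means of 2 arrays, each panel has its own axis, and FEN1 is low under both single labels and at 2.11 and 2.22 under the combination label.

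All 4 genes of nucleotide supply were lowered with the luteolin label, and with the gefitinib label their median change was 0.86, with 1 raised. RRM2 (NM_001034, probe at chr2:10186825-10186884), the inducible subunit of ribonucleotide reductase, was at 2.54 and 2.32 at 0 h, 2.20 and 2.30 with DMSO, -2.26 and -2.61 with luteolin, 2.37 and 2.40 with gefitinib and 1.25 and 0.56 with the combination. The change of -4.69 with luteolin (25.8-fold, SE 0.24 on the log2 scale, adjusted p = 8.45e-05) had rank 5 from the bottom of all genes tested. RRM2 also fell by 1.34 with the combination label (adjusted p = 0.00482), a call that was lost without the combination array of replicate 2, and differed by 0.14 with gefitinib. RRM1, the other subunit of the enzyme, fell by 2.09 with luteolin and stood at 0.76 with gefitinib.

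TYMS, thymidylate synthase, was at 5.36 and 5.35 at 0 h, 5.19 and 5.23 with DMSO, 2.91 and 3.03 with luteolin, 6.39 and 6.33 with gefitinib and 5.29 and 5.73 with the combination. It fell by 2.24 (SE 0.18, adjusted p = 0.000398) with luteolin and rose by 1.15 (SE 0.18, adjusted p = 0.00169) with gefitinib. TK1, the thymidine salvage kinase, fell by 1.45 with luteolin and stood at 0.96 with gefitinib, just under the threshold of size.

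Of the 5 genes that restore chromatin and methylation behind the fork 4 were lowered with the luteolin label, and 0 were called with the other labels. UHRF1 (NM_013282, probe at chr19:4913065-4913124), which brings the methyltransferase DNMT1 to newly copied DNA, was at 2.48 and 2.19 at 0 h, 2.08 and 1.84 with DMSO, -2.09 and -2.74 with luteolin, 1.94 and 2.20 with gefitinib and 1.04 and 0.93 with the combination. It fell by 4.37 (20.7-fold, SE 0.24 on the log2 scale, adjusted p = 0.000114) with luteolin, while DNMT1 fell by 1.30 and the chromatin assembly subunits CHAF1A and CHAF1B by 1.32 and 1.97. SLBP, which binds the ends of histone mRNAs, was at 3.02 and 2.90 at 0 h, 2.52 and 2.55 with DMSO, 1.74 and 1.82 with luteolin, 1.98 and 1.92 with gefitinib and 2.68 and 2.75 with the combination. Its differences of -0.75 (adjusted p = 0.00724) and -0.58 (adjusted p = 0.00996) with the single labels were under the threshold of size.

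DTL, the receptor of the ubiquitin ligase that removes CDT1 in S phase, was at 2.18 and 2.14 at 0 h, 1.58 and 1.68 with DMSO, -2.06 and -2.61 with luteolin, 0.11 and 0.59 with gefitinib and 1.30 and 1.14 with the combination. It fell by 3.96 (SE 0.23, adjusted p = 0.000115) with luteolin and by 1.28 (adjusted p = 0.00289) with gefitinib. CLSPN encodes claspin, the adaptor of the checkpoint kinase at stalled forks. It was at -1.54 and -1.20 at 0 h, -1.89 and -1.63 with DMSO, -4.85 and -4.67 with luteolin, -2.15 and -1.54 with gefitinib and -2.28 and -3.18 with the combination. CLSPN fell by 3.00 (SE 0.32, adjusted p = 0.000921) with luteolin and stood at -0.97 with the combination.

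The 4 E2F and cyclin E genes, which drive entry into S phase, were all lowered with the luteolin label, and with the gefitinib label 3 were lowered and 1 raised. E2F1 was at 1.27 and 1.21 at 0 h, 0.96 and 0.92 with DMSO, -1.23 and -0.58 with luteolin, 2.14 and 2.03 with gefitinib and 0.61 and 1.22 with the combination. It fell by 1.85 (SE 0.26, adjusted p = 0.00216) with luteolin and rose by 1.14 (SE 0.26, adjusted p = 0.00728) with gefitinib, where both arrays were above all others. The related E2F2 (NM_004091, probe at chr1:23705520-23705579) was at 1.14 and 0.99 at 0 h, 0.44 and 0.21 with DMSO, -4.67 and -5.43 with luteolin, -1.96 and -2.36 with gefitinib and -0.39 and -0.69 with the combination. Its change of -5.37 with luteolin (SE 0.27, adjusted p = 8.45e-05) was the largest fall of the 47 and had rank 2 from the bottom of all genes tested. This probe was well above background on 1 of the 2 arrays labelled luteolin, and normexp background correction gave -3.89. A dimmer E2F2 probe, well above background on all 10 arrays, differed by -0.09 with luteolin (adjusted p = 0.871 in limma). The fall of E2F2 with the luteolin label therefore depended on the probe. The brighter E2F2 probe fell by 2.48 with gefitinib (adjusted p = 0.000377), so that probe and E2F1 moved in opposite directions there.

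CCNE1 and CCNE2 encode the E cyclins, the partners of CDK2 at the start of S phase. CCNE1 was at 1.14 and 0.95 at 0 h, 0.93 and 1.01 with DMSO, -0.47 and -0.37 with luteolin, -0.18 and -0.04 with gefitinib and 0.39 and 0.87 with the combination, and fell by 1.39 (adjusted p = 0.00197) and 1.09 (adjusted p = 0.00271) with the single labels. CCNE2 was at -1.58 and -2.16 at 0 h, -2.31 and -2.77 with DMSO, -6.47 and -6.83 with luteolin, -4.87 and -6.03 with gefitinib and -2.74 and -3.71 with the combination. On the 4 arrays with a single drug label its probe was never well above background, which gives only a bound. Against the lowest signal well above background, CCNE2 was at least 7.97-fold lower with luteolin and at least 5.61-fold lower with gefitinib. These bounds were not tested. The limma fit to the measured levels gave -4.11 (adjusted p = 0.000939) with luteolin and -2.91 (adjusted p = 0.00163) with gefitinib. Under normexp background correction the changes of CCNE2 were -1.75 and -0.87, and the call with gefitinib was lost. Those changes are smaller than the bounds, which hold for the processed signals only.

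Promoter sequences from RefSeq (build GRCh38.p14, 250 bases before to 50 after a start) were found for 42 of the 47 genes. They were searched on both strands for 4 forms of the E2F element (TTTCCCGC, TTTCGCGC, TTTGCCGC and TTTGGCGC), for the CCAAT box (CCAAT) and for the CHR element (TTTGAA) of genes expressed late in the cycle. Matches of different E2F forms on opposite strands can share letters, as they did at MCM6. An E2F form was present in at least 1 window of 25 of the 42 genes (59.5%), against 3.99% of the 27305 genes with a promoter and 3 of 19 genes of a mitosis list (15.8%). A CHR match was present in 2 of the 42 (4.76%), against 18.2% of all genes and 14 of the 19 mitosis genes (73.7%). A CCAAT box was present in 23 of the 42 (54.8%), against 39.7% of all genes and 16 of the 19 mitosis genes (84.2%). Of the 44 further pathway genes with a promoter, described below, 34.1% had an E2F form, 18.2% a CHR match and 61.4% a CCAAT box. The 25 genes with an E2F form had a median change of -1.99 with the luteolin label (range -5.37 to -0.70) and the 17 without one had -1.65 (range -4.69 to -0.75). These ranges overlapped almost entirely, RRM2 being among the genes without a match.

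Stretches up to the base before the start are shown for 5 genes, with the E2F form in capitals on either strand. E2F2 (chr1:23531234-23531315, minus strand) and POLA2 (chr11:65261869-65261961, plus strand) had the largest falls with the luteolin and the combination labels, and E2F1 (chr20:33686386-33686458, minus strand), TYMS (chr18:657574-657652, plus strand) and POLA1 (chrX:24693741-24693917, plus strand) were lowered with the luteolin label and raised with the gefitinib label. The last 3 were chosen for display after their values were seen.
E2F2: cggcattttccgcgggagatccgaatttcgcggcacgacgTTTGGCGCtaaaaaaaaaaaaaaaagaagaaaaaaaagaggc
POLA2: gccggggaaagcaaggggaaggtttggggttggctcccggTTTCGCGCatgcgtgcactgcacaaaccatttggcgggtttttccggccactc
E2F1: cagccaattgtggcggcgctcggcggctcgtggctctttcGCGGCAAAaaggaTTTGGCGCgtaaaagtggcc
TYMS: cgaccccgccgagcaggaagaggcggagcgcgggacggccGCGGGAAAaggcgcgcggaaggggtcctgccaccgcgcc
POLA1: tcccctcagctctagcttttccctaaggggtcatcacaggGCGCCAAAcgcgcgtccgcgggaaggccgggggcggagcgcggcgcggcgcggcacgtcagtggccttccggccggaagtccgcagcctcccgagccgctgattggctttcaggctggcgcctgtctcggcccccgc
E2F1 carries matches of different forms on opposite strands. E2F1, E2F2 and POLA1, the last on the other strand, share the form TTTGGCGC, which other members such as CDC6, DTL, GMNN and MCM6 also had. With the gefitinib label E2F1 and the brighter E2F2 probe had opposite signs, whereas the dimmer E2F2 probe was raised like E2F1.

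The 5 rises with the gefitinib label (CDC45, GINS4, POLA1, TYMS and E2F1) depended on the scaling. Under quantile normalization CDC45 stood at 0.77, POLA1 at 0.81, TYMS at 0.33 and E2F1 at 0.92, each under the threshold of size. GINS4 alone kept its call there, at 1.08. The POLA1 call was lost under 3 alternatives, quantile normalization among them. The GINS4 call was in turn lost with slide as a block (0.98) and without the DMSO array of replicate 2 (0.99), and the other GINS4 probe stood at 0.97 and was not called. The median change of all genes with this label was 0.24 in the main scaling, 0.06 with quantile normalization and 0.40 with normexp, and the median of the 47 was 0.09, -0.15 and 0.06, below that of all genes in each. The 11 reference transcripts moved with this label too. Their summed signal relative to the 75th percentile was 1360 to 1610 with gefitinib and 1130 to 1550 with the combination, against 786 to 871 on the other 6 arrays, and its part in these rises was not tested. The 10 falls with the gefitinib label were CDC7, DBF4, GINS1, GINS3, PCNA, FEN1, DTL, E2F2, CCNE1 and CCNE2, of which the 7 with values in every array above (DBF4, PCNA, FEN1, DTL, E2F2, CCNE1 and CCNE2) were also called under quantile normalization. Of these the CCNE2 call was lost under normexp, and the E2F2 call with the median over its probes.

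Slides held arrays of several groups, so the falls could be read within a slide. These readings use the same arrays as the comparisons above. No share or median of all genes within a slide is given beside them. Luteolin minus DMSO was below 0 for 47 of 47 genes on each of the slides 1 and 2, with medians of -1.82 and -1.89. The combination minus DMSO was below 0 for 36 genes on each, with medians of -0.32 and -0.54. Gefitinib minus DMSO, available on slide 1 alone, was below 0 for 21 genes with a median of 0.05, and it was 1.35 for CDC45, 1.20 for TYMS and -2.90 for DBF4. The gefitinib array of slide 3 shared its slide with a 0 h array and not with DMSO, and there CDC45 stood at 0.68, TYMS at 0.97 and DBF4 at -2.83.

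Without a drug, 24 h in DMSO left the 47 genes slightly lower than at 0 h. All genes but TK1 and DBF4 had a negative difference (45 of 47), and 42 of the 47 lay wholly below the 0 h arrays, where 25.2% of all genes did. The median was -0.36, beside -0.02 over all genes. None was called lowered by limma, beside 0.00955% of all genes, and none was called raised, beside 0.0239%. There were 13 of the 47 genes with an unadjusted p under 0.05 in limma, for which the share of all genes is not given. The methods' one-sample t-test also gave 0 calls. The largest difference was that of E2F2 (-0.74, SE 0.27, adjusted p = 0.708). TK1 stood at 0.25 and DBF4 at 0.08. Taking 0 h in place of DMSO as the base, 43 genes were lowered with the luteolin label (7.88% of all genes), 15 with the gefitinib label (14.4%) and 18 with the combination label (8.19%), and 0, 2 and 0 were raised (8.01%, 15.1% and 11.5% of all genes).

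The drug labels also differed from one another. Of the 47 genes 38 were called higher with the gefitinib label than with the luteolin label, beside 19.3% of all genes, and 1, DBF4, was called lower, beside 17.7%. For CCNE2, counted among the 38, both groups were below background and no fold is given. With the combination label 34 were higher than with the luteolin label (11.3% of all genes) and 0 lower (9.43%), with RRM2 at 3.35 and MCM10 at 4.03. The combination and gefitinib labels divided the genes, with 13 lower under the combination label (9.64% of all genes) and 6 higher (17.1%). Those lower were MCM3, CDC45, GINS2, GINS4, POLA1, POLA2, PRIM1, POLE2, RFC2, RRM2, DNMT1, UHRF1 and E2F1, and those higher were CDC6, DBF4, GINS3, FEN1, E2F2 and CCNE2. FEN1 had the largest difference among them (2.55, SE 0.17, adjusted p = 5.07e-05).

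The interaction of the drugs was taken as the change with the combination label minus the sum of the changes with the single labels. It was above 0 at an adjusted p under 0.05 for 31 of the 47 genes, beside 17.8% of all genes. It was below 0 for 0, beside 15.9%. An unadjusted p under 0.05 was found for 34 of the 47, for which the share of all genes is not given. The median was 1.39, beside -0.17 over all genes. Among the roles it was called for 8 of 10 licensing genes, 6 of 8 firing genes and 4 of 4 genes of nucleotide supply. It was called for 0 of 6 polymerase and primase genes, whose values were all positive (median 0.94, range 0.35 to 1.08). The other POLD1 probe gave 1.01 (adjusted p = 0.0468 in limma), beside 1.00 (adjusted p = 0.0669) for the brighter one. The brighter E2F2 probe gave 6.99 (SE 0.38, adjusted p = 0.000122), with 1 of the 2 arrays labelled luteolin well above background, whereas the dimmer E2F2 probe gave -0.82 (SE 0.47, adjusted p = 0.207), so the sign for E2F2 depended on the probe. For CCNE2, below background under both single labels, the measured levels gave 6.33 (SE 0.63, adjusted p = 0.000438), which became 4.79 with the lowest signal well above background in their place and 2.41 under normexp. MCM10 gave 4.97 (SE 0.28, adjusted p = 0.000122), with 1 of the 2 arrays labelled luteolin well above background, and 3.03 under normexp, and its other probe gave 5.19. For MCM10 the single labels gave -4.46 and -0.94 and the combination label -0.43. Among genes with probes well above background on all 10 arrays, DTL gave 4.84, and the 2 probes of FEN1 gave 4.48 and 4.45 (adjusted p = 0.000122 in limma for each FEN1 probe).

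Other genes of the same processes were read from lists of neighbouring functions. Of 30 further genes of the replication machinery 9 were lowered with the luteolin label (median -0.70), beside 6.13% of all genes. With the gefitinib label 4 were lowered and 2 raised (median 0.11), beside 14.1% and 16.6% of all genes. With the combination label 3 were lowered (median -0.32), beside 7.45%. The falls with the last 2 labels were near these shares, and the rises with gefitinib were below theirs. TOP2A, the topoisomerase that separates sister chromosomes, was at -2.80 with luteolin, -1.38 with gefitinib and -2.67 with the combination, all called, and DSCC1, a subunit of an alternative clamp loader, was at -2.83 with luteolin and -1.55 with the combination. TICRR, needed for origin firing, fell by 2.79 with luteolin and 1.89 with gefitinib, where TIMELESS, a component of the fork protection complex, rose by 1.09.

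Of 14 further G1/S regulators 7 were lowered with luteolin, 7 lowered and 1 raised with gefitinib, and 2 lowered with the combination. Beside these stood 6.13%, 14.1%, 16.6% and 7.45% of all genes, in that order. CDC25A, the phosphatase that activates CDK2, fell by 4.85 with the gefitinib label (SE 0.32, adjusted p = 6.71e-05) and by 2.80 with the luteolin label. CCNA2, cyclin A, fell by 2.97, 2.83 and 1.78 with luteolin, gefitinib and the combination, and the repressor E2F8 fell by 4.79 with luteolin (SE 0.57, adjusted p = 0.0012). E2F6 fell by 2.07 with gefitinib and E2F5 by 1.46 with the combination. Of 12 further genes of nucleotide metabolism and S phase chromatin 7 were lowered with luteolin. With gefitinib 3 were lowered and 1 raised, and with the combination 2 were lowered. The same shares of all genes stand beside these counts. The exonuclease EXO1 fell by 3.71, HELLS by 2.87 and CDCA7 by 2.81 with luteolin, and NASP, a histone chaperone, fell by 1.75 with gefitinib and 1.26 with the combination.

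**Figure D4:**
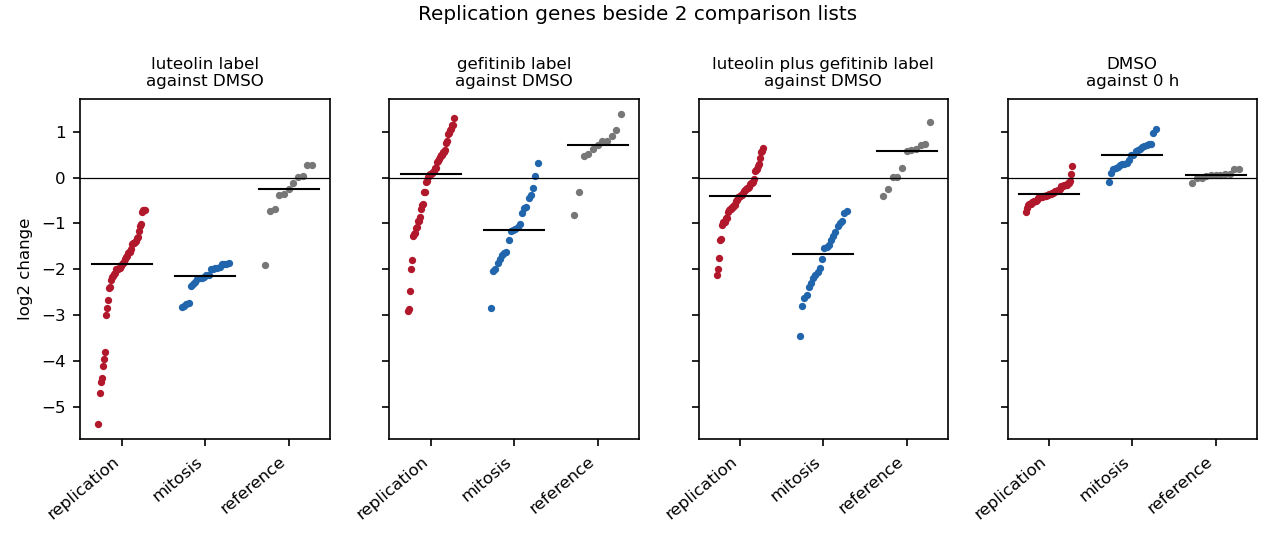
Log2 change of the 47 replication genes, 22 mitosis genes and 11 reference transcripts in 4 comparisons, with each point a gene and each bar the median of its list. The medians of the replication and mitosis genes are -1.88 and -2.15 with the luteolin label, 0.09 and -1.14 with the gefitinib label, -0.41 and -1.66 with the combination label and -0.36 and 0.50 for DMSO against 0 h.

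Genes of mitosis, set beside the replication genes as the nearest program of the cycle, had other counts with the gefitinib and combination labels. All 22 were lowered with luteolin (median -2.15), 14 with gefitinib (median -1.14) and 18 with the combination (median -1.66), and 0 were raised. Of all genes, 6.13%, 14.1% and 7.45% were lowered and 7.04%, 16.6% and 12.1% raised, in that order of labels. In DMSO against 0 h the median of the mitosis genes was 0.50, opposite in sign to that of the replication genes. The difference between the lists was not tested. Of the 11 reference transcripts 1 was lowered with luteolin (6.13% of all genes). With gefitinib 2 were raised (16.6%), and with the combination 1 was raised (12.1%). HPRT1, an enzyme of purine salvage, was the 1 lowered (-1.90, adjusted p = 0.0012 in limma).

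Several probes measured 12 of the 47 genes, and the probe with the highest mean signal stands for each. With the luteolin label the probes of 10 of these 12 genes had the same call. For E2F2 the dimmer probe differed by -0.09 with luteolin, by 1.70 with gefitinib (adjusted p = 0.00403, called raised) and by 0.79 with the combination. The fall of E2F2 with the luteolin label and its direction with the gefitinib label therefore depended on the probe. The median over both E2F2 probes was -0.39 there (adjusted p = 0.209). For RFC3 the other probe, for the transcript NM_181558, differed by -0.80, 0.45 and 1.70 (adjusted p = 0.00115 for the last, called raised with the combination label). The dimmer DBF4 probe differed by -2.64, -2.13 and -0.52, with the first 2 called.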

How the data were processed

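RNA of the 10 cultures was hybridized to single-color arrays, and samples were grouped by their labels. The intensities deposited by the authors are the processed signals of Agilent Feature Extraction (version 10.7.3.1 per the file headers), background-subtracted array by array and not normalized across them. The value table of the series held the same signals for all 45015 spots, and 0 columns of samples were left unused. Probe positions in the headers refer to hg18.

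Files were read with R 4.3.3 and data.table. After removal of control and outlier spots, replicate spots were averaged on the log2 scale and expressed against the 75th percentile of each array. Probes were kept if 1 or more groups had them well above background on each array (28776 of 41000), giving 20953 genes, each by its brightest probe. Older symbols in the files (ORC1L, CDC45L) were matched to current ones. limma 3.58.1 was fitted to the 5 groups on all 10 arrays, and p-values were adjusted by Benjamini-Hochberg over all probes kept. Calls needed adjusted p < 0.05 together with a change of 1 or more (log2), or for the interaction the adjusted p alone. Where a probe was below background in a group, a fold is a bound. Only 2 arrays per group limit the precision, and signal over background takes the place of depth. The fit was tested on simulated data.

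The 47 genes and all lists were chosen with earlier results of these data known. Values in every array are given for the largest change of each role under each label, for opposite calls, for the 3 largest interactions and for PCNA, MCM2, CDT1, GMNN, E2F1, CCNE1 and CCNE2, and the text names the 3 largest changes of each neighbouring list. The alternatives were normexp (offset 50), quantile normalization, median centring, other filters on dim probes, the value table, replicate or slide blocks, only the groups compared, the file-name treatments, no minimum fold, the median over probes, the methods' one-sample t-test, and leaving out each array. A lone array left in a group was assumed to vary like the other groups.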

Additional observations from a re-analysis of the deposited data

Results flagged for a closer look

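The interaction term differed from 0 for 31 of the 47 genes, all above 0, meaning that the change with the gefitinib label depended on whether the luteolin label was present. On the log2 scale the measured values were 6.99 for the brighter E2F2 probe, 6.33 for CCNE2 and 4.97 for MCM10, and no order among them is given. DTL (4.84) and FEN1 (4.48), each with its probe well above background on all 10 arrays, are not limited by background in this way. The dimmer E2F2 probe gave -0.82 (adjusted p = 0.207). CCNE2 was well above background on 0 of the 4 arrays with a single drug label, and the brighter E2F2 probe and MCM10 on 1 of the 2 arrays labelled luteolin. With the lowest signal well above background in place of lower levels, an alternative chosen after seeing the data, the interaction was 6.90 for that E2F2 probe, 4.79 for CCNE2 and 4.79 for MCM10, and under normexp it was 5.17, 2.41 and 3.03. Under the file-name treatments the interaction was above 0 for 40 genes. No share of all genes is given for that count or for the range that follows. Leaving out 1 array at a time gave 25 to 36.

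The probes that do not stand for their gene held signals above the DMSO arrays for E2F2, which rose by 1.70 with the gefitinib label, and for RFC3, which rose by 1.70 with the combination label. The E2F2 probe was at -4.47 and -5.08 with DMSO and at -3.37 and -2.79 with gefitinib. The RFC3 probe was at -2.94 and -3.37 with DMSO and at -1.48 and -1.44 with the combination.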

How the results depend on the processing

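With the treatments of the file names in place of the labels, 6 genes were lowered with luteolin, beside 7.45% of all genes. With gefitinib 43 were lowered and 0 raised, beside 6.13% and 7.04%. With both drugs 10 were lowered and 5 raised, beside 14.1% and 16.6%. Whole groups are exchanged, so these shares are those of the exchanged labels. Named genes called under either assignment then changed sign, with luteolin CDT1 (0.16), FEN1 (0.56) and TYMS (0.30). With gefitinib they were MCM2 (-1.98), E2F1 (-1.85), MCM3 (-1.99), PRIM1 (-2.85), POLA1 (-1.63), RFC3 (-2.00), RRM2 (-4.69), TYMS (-2.24), UHRF1 (-4.37), CDC45 (-1.65) and GINS4 (-1.62). With both drugs they were E2F1 (1.14), MCM3 (0.46), PRIM1 (0.02), POLA1 (1.04), FEN1 (-1.99), RRM2 (0.14), CDC45 (1.29) and GINS4 (1.06). Called under neither assignment, SLBP with luteolin and MCM2, CDT1, RFC3, UHRF1 and SLBP with both drugs also changed sign. This follows from the exchange of the groups, and no named gene changed sign under any other alternative where it was called. Quantile normalization left 1 gene raised with the gefitinib label and 10 lowered with the combination label, and the cause was not tested. Without a minimum fold, 12 were raised with gefitinib and 16 lowered and 2 raised with the combination. The methods' one-sample t-test gave 5 lowered with gefitinib and 1 with the combination before adjustment, and after adjustment 0 lowered or raised under any label, with 1 degree of freedom a gene. Leaving out 1 array at a time gave 39 to 43 genes lowered with luteolin, 9 to 12 lowered and 4 to 7 raised with gefitinib, and 4 to 12 lowered with the combination, where 12 came without the combination array of replicate 1. Replicate numbers were not used to pair the arrays. The differences between replicates correlated between groups at -0.10 to 0.29. Replicate number largely followed the slide, and whether cultures were paired was not tested. With a replicate block the counts were 43, 10 and 6 lowered and 5 raised with gefitinib, equal to those without it, and with a slide block 43, 12 and 6 lowered. Among 75 changes of named genes, normexp ended 3 calls and the median over probes 2. Probes near background, as for CCNE2, E2F2, MCM10 and POLE, limit what can be said of their lowest levels.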
